A study of Mus musculus with 4 samples.

Results

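The regions described here are 16475 stretches of accessible chromatin that were listed in mouse cells after 5 days of neural differentiation, in wild type and in knockout cells alike, and in neither genotype before differentiation. They were chosen by the peak lists themselves. The peaks of 4 libraries were pooled, peaks sharing at least 1 bp were merged into 328597 regions, and a region was taken when a peak of both day 5 lists and of neither day 0 list lay in it. The members were 5.01% of all merged regions, and 16474 of them lay on assembled chromosomes. Their absence at day 0 and presence at day 5 are therefore the rule, not a result.

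Single-nucleus ATAC-seq maps open DNA by letting a transposase cut it inside isolated nuclei, and here it was the chromatin side of a 10x Genomics Multiome assay. The cells were mouse embryonic stem cells derived from blastocysts, either wild type or Cdc14ab KO, which lack Cdc14a and Cdc14b, a pair of phosphatases that oppose cyclin-dependent kinases. Day 0 cells were kept in medium with LIF, a cytokine that holds them pluripotent, and day 5 cells had spent 5 days in N2B27 medium with EGF and FGF2. All cells had been grown over feeder cells, which were removed by culture on gelatin. Each group had 1 library, aimed at about 5000 nuclei, and all 4 carry the label clone 3, so a genotype and a clone cannot be told apart and no difference below has a replicate check.

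When stem cells take up a neural fate, transcription factors of the SOX, POU, PAX and basic helix-loop-helix families bind DNA elements that were closed before. Most such elements are enhancers, which lie in introns or between genes, often far from the gene they act on. Promoters rich in CG pairs are usually open in every cell type, while promoters poor in CG pairs open more often in 1 tissue.

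The 2 wild type lists had 198860 (day 0) and 189571 (day 5) entries, and those of the knockout 222257 and 227878. Values for all 4 libraries are given below with both day 0 libraries first and wild type before knockout. The entries carry no height or count, so depth is unknown, and a peak that is not listed may have been too shallow to be called. Fewer open cells of a type and less open chromatin per cell cannot be told apart either. Peaks within 1 kb of a start or end were no guide to cell type: 6 of 6 pluripotency markers and 6 of 6 neural progenitor markers had such a peak in every library, and 4, 5, 5 and 5 of 5 fibroblast markers across the libraries.

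A few of the gene starts at which a region was gained are shown first, as examples. They are not typical of members, of which 2.47% lay within 1 kb of a start or end. Neurog2, a proneural factor, Dcx, a microtubule protein of migrating neurons, and Robo2, a receptor for Slit guidance cues, follow the rule for named genes. Gad1, which makes the transmitter GABA, Fezf2, a forebrain factor, and T, the mesoderm factor brachyury, were chosen after their values were seen. Each line gives the 250 bases before the annotated start, read 5′ to 3′ on the strand of the gene, from RefSeq (GRCm38.p6, which has the coordinates of mm10). Capitals mark CG pairs.
Neurog2 (chr3:127632886-127633135, plus strand): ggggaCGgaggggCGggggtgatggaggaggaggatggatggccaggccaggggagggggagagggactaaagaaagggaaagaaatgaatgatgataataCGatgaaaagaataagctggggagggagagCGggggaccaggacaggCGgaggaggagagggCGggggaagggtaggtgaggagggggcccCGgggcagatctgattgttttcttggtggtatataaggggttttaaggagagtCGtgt
Dcx (chrX:143933220-143933469, minus strand): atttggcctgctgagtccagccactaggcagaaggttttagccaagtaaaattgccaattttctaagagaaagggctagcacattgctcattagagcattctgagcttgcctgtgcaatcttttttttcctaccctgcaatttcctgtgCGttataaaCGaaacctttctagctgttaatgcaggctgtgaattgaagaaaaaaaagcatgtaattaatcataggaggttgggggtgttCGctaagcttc
Robo2 (chr16:75092771-75093020, minus strand): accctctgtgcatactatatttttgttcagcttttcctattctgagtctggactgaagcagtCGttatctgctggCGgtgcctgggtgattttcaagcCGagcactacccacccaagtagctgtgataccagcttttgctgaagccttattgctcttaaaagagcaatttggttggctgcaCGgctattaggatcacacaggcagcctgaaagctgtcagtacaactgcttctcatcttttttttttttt
Gad1 (chr2:70561879-70562128, plus strand): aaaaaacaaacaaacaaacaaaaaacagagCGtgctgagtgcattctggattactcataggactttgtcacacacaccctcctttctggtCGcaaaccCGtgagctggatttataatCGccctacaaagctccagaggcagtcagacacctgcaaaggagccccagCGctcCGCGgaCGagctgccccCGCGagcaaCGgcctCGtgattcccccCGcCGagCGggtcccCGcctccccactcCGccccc
Fezf2 (chr14:12345866-12346115, minus strand): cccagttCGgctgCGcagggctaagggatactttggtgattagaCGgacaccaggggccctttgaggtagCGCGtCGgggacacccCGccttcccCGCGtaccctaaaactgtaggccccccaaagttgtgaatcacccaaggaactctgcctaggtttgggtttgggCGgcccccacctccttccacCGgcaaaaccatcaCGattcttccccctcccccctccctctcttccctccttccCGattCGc
T (chr17:8434173-8434422, plus strand): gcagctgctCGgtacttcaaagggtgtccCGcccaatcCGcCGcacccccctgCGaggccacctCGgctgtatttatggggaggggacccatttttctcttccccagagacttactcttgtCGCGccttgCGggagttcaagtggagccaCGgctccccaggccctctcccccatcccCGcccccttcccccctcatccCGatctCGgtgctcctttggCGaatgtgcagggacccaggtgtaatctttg

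Dcx and Robo2 had few CG pairs in these stretches, 3 and 4. Neurog2 had 8, Fezf2 and T had 14 each, and Gad1 had 17. The gained region covered all 250 bases at Neurog2 and T, 230 at Robo2, 217 at Dcx, 210 at Gad1 and 150 at Fezf2. At Fezf2 only the wild type day 5 peak reached these bases, and the knockout peak ended at −253 bp.

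At Neurog2, the member chr3:127632252-127633164 ran from upstream of the gene into its first bases. The wild type day 5 peak lay from −884 to 12 bp of the start and the knockout day 5 peak from −864 to 28 bp, so that both shared 96.1% of the bases either covered. Day 0 cells had peaks on both sides but none over the start: the nearest was 370 bp away in wild type cells, and in knockout cells 719 bp. Peaks were thus already listed nearby in stem cells, and the new ones lay over the start itself. Within 25 kb the libraries had 11, 7, 8 and 9 peaks.

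At Dcx, the member chrX:143932566-143933436 spanned both annotated starts of the table, and the 2 day 5 peaks shared 89.7% of their bases. The wild type had a day 0 peak 221 bp away, whereas the nearest one of the knockout was 25333 bp away. Dcx had 3 further members: chrX:143884653-143885560 and chrX:143885687-143886528 in its body, and chrX:143966006-143967005 outside it. Of the 17 regions assigned to Dcx, 7 and 9 held a day 0 peak and 13 and 15 a day 5 peak (wild type, then knockout), which put 4 of its 17 regions among the members.

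Robo2 has 3 annotated starts in the table, and the member chr16:75092791-75093923 began 21 bp upstream of one of them. It stood apart from day 0 peaks: the nearest were 44911 bp (wild type) and 44914 bp (knockout) away. Within 25 kb of this start the libraries had 0, 0, 3 and 1 peaks. The member's 2 day 5 peaks were offset, sharing 62.3% of their bases. Gad1 was the opposite case, with a member at chr2:70561919-70562767 squeezed between older peaks, 261 bp from the nearest wild type day 0 peak and 278 bp from that of the knockout, and with 97.4% of bases shared. At Fezf2 a pair of members flanked the start and left it uncovered, from −1019 to −101 bp and from 520 to 1396 bp in wild type, and from −1166 to −253 bp and from 503 to 1316 bp in the knockout.

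T is a mesoderm gene, yet its start was covered by a member as well, chr17:8433779-8434716, with 90.2% of bases shared. A wild type day 0 peak ended 162 bp away, and the nearest knockout day 0 peak was 3388 bp away. Of the 319 genes in the 19 lists used here, 19 (5.96%) had a member within 1 kb of a start or end, beside 1.87% of all protein-coding genes (409 of 21887), which have fewer regions on the whole. They included the signalling genes Wnt7b and Gli2, the Notch ligand Dll1, the patterning factors Irx5, Pax7 and Zic1, the synaptic gene Snap25, and the guidance and adhesion genes Slit1 and Nrcam. Genes of other tissues were among them too: Lum, Erg, Elf5 and Krt18, and also Aurkb, a mitotic kinase, and Dnmt3a, a DNA methyltransferase. At Dnmt3a the 2 day 5 peaks barely met, sharing 6.72% of their bases.

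**Figure D1:**
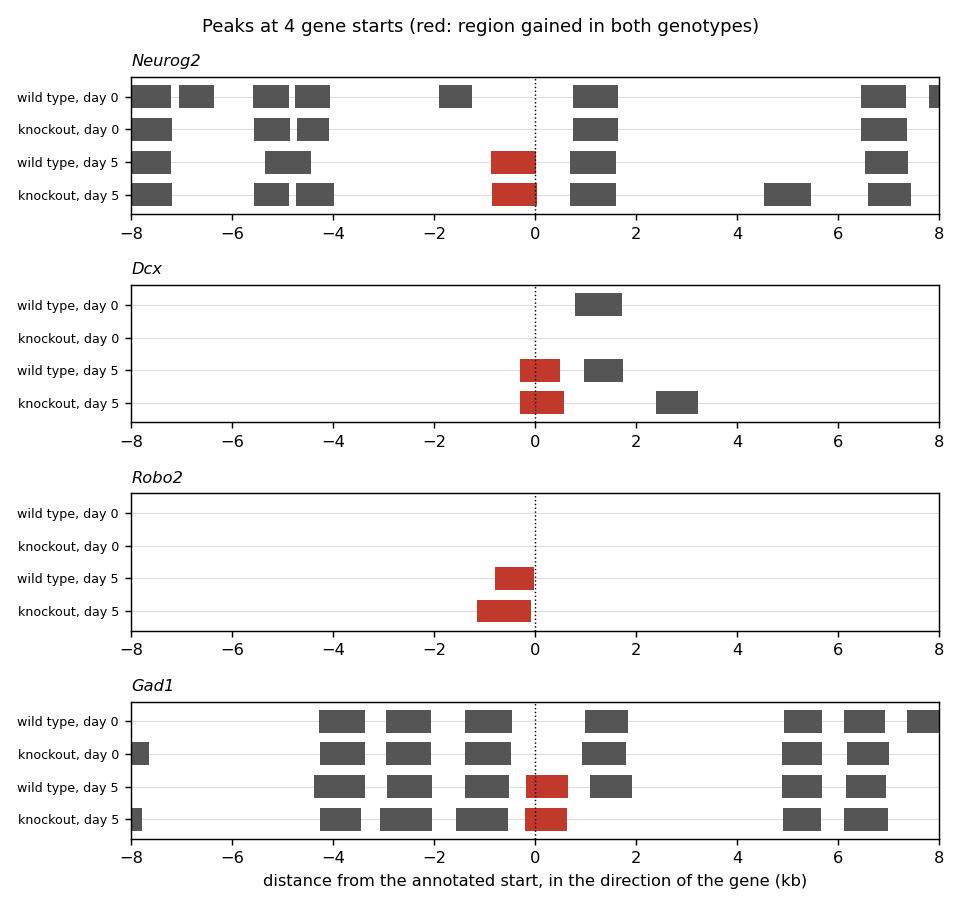
Peaks of the 4 libraries around the annotated starts of Neurog2, Dcx, Robo2 and Gad1; the horizontal axis is the distance from the start in kb, in the direction of transcription, each bar is 1 peak, and red bars lie in regions gained in both genotypes. At Neurog2, Dcx and Gad1 the red bars cross the start, at Robo2 they end 21 bp (wild type) and 89 bp (knockout) before it, and neither day 0 row has a peak there.

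Regions gained in both genotypes were fewer than those gained in a single one. There were 30090 regions with a day 5 peak in wild type only and 32999 in the knockout only. Of the wild type's 46565 day 5 regions without a day 0 peak in either genotype, 35.4% were members, and of the knockout's 49474 such regions 33.3% were. For comparison, 18815 regions were lost in both, meaning listed in both day 0 libraries and neither day 5 library, and 111046 were listed in all 4 libraries. Members made up 8.80% of all wild type day 5 regions and 7.35% of those of the knockout. The shares depend on what each caller run could detect in each library, and the part of depth in them was not tested.

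**Figure D2:**
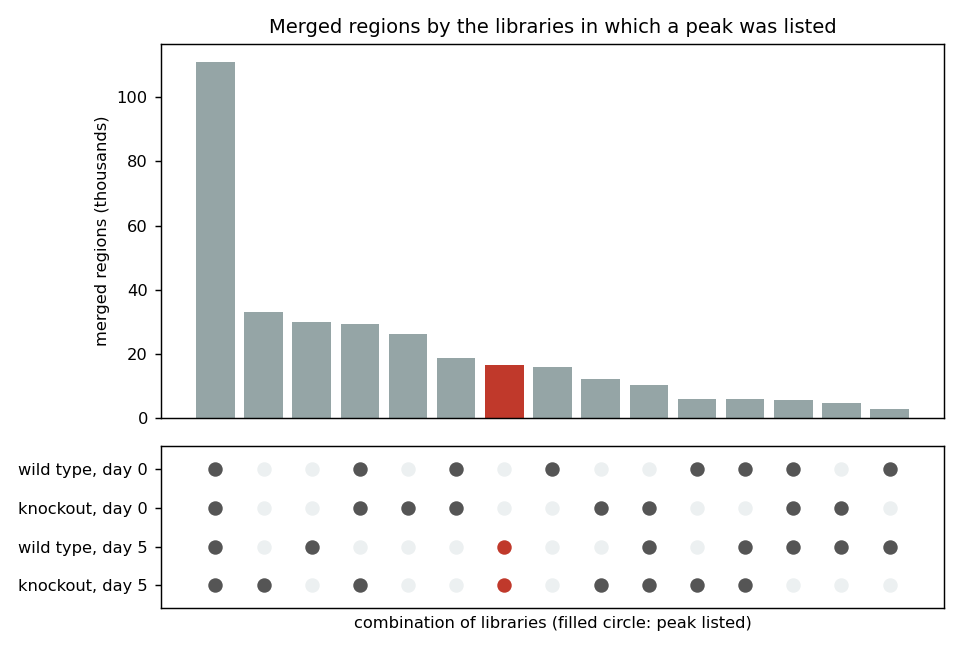
Number of merged regions (vertical axis, in units of 1000) for each combination of libraries in which a peak was listed, shown by filled circles under each bar. The 16475 regions gained in both genotypes are in red, between the larger group lost in both and the smaller groups to the right, and far below the 111046 regions of all 4 libraries.

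Most members were well apart from any day 0 peak, although the rule asks only that no base be shared. The median gap to the nearest day 0 peak was 3.89 kb (quartiles 1.23 and 10.5 kb), 14538 members (88.2%) were at least 500 bp away and 4308 (26.2%) at least 10 kb, with the farthest at 418 kb. Just inside the threshold, 203 members had a gap under 50 bp, and in 4 of them the peaks touched. Just outside it, 37 of the 127289 regions listed in both day 5 libraries and in at least 1 day 0 library had no more than 50 bp in common with day 0 peaks.

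The rule takes only regions in which day 5 peaks of both genotypes were merged, so some overlap was required of every member. Its extent describes the members and not day 5 peaks in general. Within members, the day 5 peaks of the 2 genotypes covered nearly the same bases. The shared part was a median of 87.0% of the bases covered by either (quartiles 78.8 and 92.7%), with centres 49.5 bp apart in the median and 663 members (4.02%) under 50%. This part was 89.1% for both day 0 peaks of regions lost in both, with centres 39 bp apart, and 91.4% for both day 5 peaks of regions in all 4 libraries, with centres 31 bp apart. Placement was thus slightly looser in the gained regions than in either group, with no replicate to set the difference against. Peak widths were alike, with medians of 880 bp (wild type) and 883 bp (knockout). The knockout peak was wider in 8699 members and the wild type peak in 7665. Merged members had a median width of 939 bp and ranged from 284 to 2247 bp.

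Nearly all members, 16271, held 1 peak of each day 5 list, and 204 held more. Of the 5 widest, 4 were chains of offset peaks, and the one in Iqgap2 held a single broad knockout peak of 2057 bp. The widest, chr5:28458945-28461191 (2247 bp), lay in the body of Shh, the ligand of the Hedgehog pathway, 2105 bp from the nearer end of the gene, for which the table holds no start. There a single wild type peak, chr5:28459625-28460415, bridged a pair of knockout peaks, chr5:28458945-28459813 and chr5:28460284-28461191, so that 14.3% of the covered bases were shared. The next 4 by width were in the bodies of Iqgap2 and Faf1, at one end of Kcnq1 and, on chromosome 8, more than 100 kb from any gene.

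Members lay farther from gene starts than regions of most other groups. In all, 407 of 16474 (2.47%, 95% exact interval 2.24 to 2.72%) lay within 1 kb of a protein-coding gene's start (or of either end where no start was annotated), while 46.8% lay in gene bodies, the same share as over all merged regions, and 50.7% (49.9 to 51.5%) outside genes, against 46.0% over all merged regions. The share near starts was 7.22% over all merged regions, 4.45% among regions lost in both and 15.6% among regions in all 4 libraries. Regions gained in 1 genotype only were like members in this: 1.80% (wild type) and 2.19% (knockout) lay near starts. Outside genes lay 50.9 and 50.5% of them. The median distance was 52.4 kb for members, 21.9 kb for regions lost in both and 18.7 kb for regions in all 4 libraries. More than 100 kb separated 33.6% of members from any such start or end, against 16.4% of the lost regions. Regions gained in 1 genotype only lay as far out or farther in wild type (median 67.1 kb) and somewhat nearer in the knockout (40.5 kb). These intervals cover counting error only, and neighbouring regions are not independent.

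**Figure D3:**
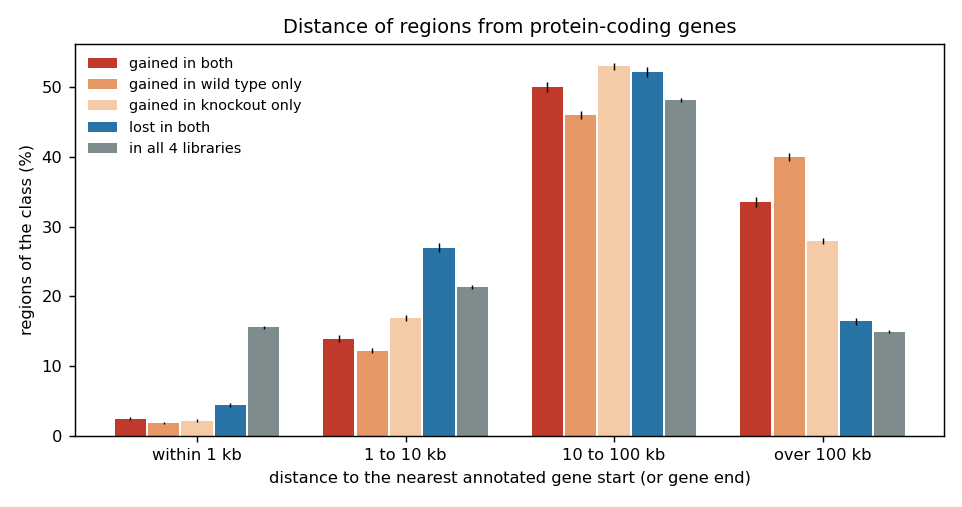
Share of regions (%, vertical axis) by distance to the nearest annotated gene start or gene end (horizontal axis), for regions gained in both genotypes, gained in 1 genotype, lost in both and in all 4 libraries; lines are 95% exact binomial intervals. Within 1 kb the bars run from 1.80% (gained in wild type only) to 15.6% (all 4 libraries), and beyond 100 kb from 14.9% (all 4 libraries) to 40.0% (gained in wild type only), with gained in both at 33.6%.

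Gained regions tended to sit beside other gained regions. Of the neighbouring regions of members, 10.5% were members, while members made up 5.01% of all regions. Regions gained in wild type only made up 15.7% of the neighbours (9.16% of all regions), those gained in the knockout only 14.3% (10.0% of all), and regions lost in both 3.53% (5.73% of all). Sitting beside the same kind was not particular to members. Of the neighbours of regions gained in wild type only, 21.7% were of that group, and for the knockout only 17.8%. For regions lost in both this was 8.24%, and for regions in all 4 libraries 38.3% (33.8% of all). Most members had no member beside them: there were 13251 single ones, 1304 pairs and 162 runs of 3, and the longest run held 7. In windows of 100 kb the highest count was 7, reached in 7 windows. The 3 with the highest share were chr11:63700001-63800000 (7 of 14 regions) and chr10:83900001-84000000 (7 of 17), both with no protein-coding gene, and chr18:84400001-84500000 (7 of 17), at Zfp407.

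Every autosome carried members, from 4.22% of regions on chromosome 7 to 5.87% on chromosome 3, and the autosomes together had 5.01%. On the X chromosome 440 of 8379 regions (5.25%) were members. There, 481 regions were gained in wild type only and 1555 in the knockout only, while over the whole genome these were 30090 and 32999. No member lay on the Y chromosome, which had 26 regions.

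To relate members to genes, each region was given to the genes whose span it overlapped, or else to the nearest gene within 100 kb. Of all 292914 assignments, 4.57% were of gained regions, and 33.1% of the 19803 genes with any region had at least 1. A gene with many regions has more chances: the gained share was 2.87% in genes with 1 to 4 regions and 5.85% in genes with 50 or more. At least 1 gained region was found in 6.59% of genes with 1 to 4 regions and in 18.2% with 5 to 9. It was found in 69.4% of genes with 20 to 49 regions and in 94.5% with 50 or more. A gene with few regions thus usually has no member, and a gene with many usually has one. The shares below stand beside these values with no test, and the lists differ in how many regions their genes have.

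Genes of the Hedgehog, retinoid and Wnt pathways had a high share of gained regions, 75 of 912 (8.22%, exact interval 6.52 to 10.2%), the highest of the 19 lists except with equal list lengths and with 50 kb windows. These pathways set the fate of neural cells along the axes of the neural tube. At least 1 member was found in 20 of the 25 genes. Gli3, a transcription factor that mostly represses Hedgehog targets, had 12 members among 87 regions, and the 4 lists had peaks in 40, 50, 59 and 58 of these. Its 12 members were spread from 22020 bp to 224479 bp from the nearest start, 11 of them in the gene body. Gli2, the main activator of the same pathway, had 8 of 81, the Hedgehog decoy receptor Hhip 5 of 40, and the co-receptors Boc and Cdon 4 of 43 and 3 of 34.

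Retinoid genes were led by Rarb, a retinoic acid receptor, with 10 of 73 regions gained. Its regions held peaks in 20 and 38 cases at day 0 and in 49 and 44 at day 5, wild type first, so that the genotypes were farther apart before differentiation than after. Of its other regions, 15 were gained in wild type only and 7 in the knockout only. The retinoic acid degrading enzymes Cyp26b1 and Cyp26a1 had 3 of 34 and 2 of 19, and the synthesizing enzyme Aldh1a2 had 2 of 36. On the Wnt side, Tcf7l2, a nuclear effector, had 7 of 86, Axin2, a feedback inhibitor and target of the pathway, 4 of 49, and Rspo3, a secreted enhancer of Wnt signals, 4 of 15. Lef1, another nuclear effector, had 2 gained and 7 lost of 62. Shh, Ptch1, Crabp1, Crabp2 and Gas1 had 1 each, and Smo, Gli1, Rara, Wnt3a and Fzd3 had none.

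Axon guidance and adhesion genes came next with 112 of 1449 regions (7.73%, 6.41 to 9.23%), and 22 of 26 genes had a member. Most of these genes had at least 20 regions, and most genes of that size have a member, as given above. Robo2 had 16 of 110, of which 14 lay in the gene body, 1 at the start shown above and 1 outside the gene. Its regions held peaks in 42, 37, 77 and 66 cases in the order of the lists, so both genotypes had more at day 5. Slit3, a Robo ligand, had 14 of 139 and Robo1 10 of 141. Dcc, the receptor for netrin, had 9 of 64, and here the day 5 lists differed widely: its regions held a peak in 11 and 15 cases at day 0 and in 55 (wild type) and 26 (knockout) at day 5. In this list as a whole 325 regions (22.4%) were gained in wild type only and 126 (8.70%) in the knockout only, beside 7.94 and 9.47% over all genes. Epha4 (6 of 67), Nrp2 (5 of 63), Sema3a (4 of 70) and Cdh6 (4 of 36) followed, and Cntn2, Epha5, L1cam and Unc5c had no member.

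Neural progenitor genes had 34 of 586 regions gained (5.80%, 4.05 to 8.01%), in 14 of 24 genes. Dll1, a Notch ligand that marks cells about to become neurons, had 4 of 24, and its regions held peaks in 10, 8, 17 and 18 cases. The Dll1 member nearest to a start was chr17:15374444-15375221, 602 bp from it, with 96.4% of bases shared. Sox2, Sox1 and Sox3, the SOX factors that define neural progenitors, had 4 of 60, 3 of 33 and 2 of 21. The nearest Sox2 member, chr3:34643672-34644650, was 5345 bp from the start, and the other 3 were 51330 to 93325 bp away. Zic1 had 2 of 7, Otx2 3 of 43, Six3 3 of 24, Pou3f2 2 of 16, Notch1 2 of 24 and Pax6 1 of 31. Cdh2, the N-cadherin of neuroepithelium, had 4 of 57, with 19 more gained in wild type only and 2 in the knockout only. Several defining markers had none, most of them with few regions: Nes (4 regions), Hes5 (5), Fabp7 (6), Vim (8) and Lhx2 (27). With so few regions, having none is the usual case, except at Lhx2.

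Patterning factors had 52 of 838 regions gained (6.21%, 4.67 to 8.06%), in 17 of 28 genes. Irx2, a factor of the Iroquois family, had 6 of 29, with peaks in 12, 14, 17 and 23 of its regions, and all 6 members lay outside genes, from 17934 to 85738 bp away from the nearest start. Irx5 had 4 of 41 and Irx3 3 of 37. Meis2 and Meis1 had 6 of 64 and 5 of 68, Pax7 and Pax3 5 of 52 and 3 of 33, and the ventral and intermediate cord factors Dbx2 and Dbx1 3 of 21 and 2 of 20. En1, En2, Gbx2, Nkx2-2, Rax and Vax1 had none.

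Neuronal genes, from proneural factors to synaptic proteins, were near the background, 22 of 505 (4.36%, 2.75 to 6.52%), in 13 of 20 genes. Beside Dcx, the neural adhesion gene Ncam1 had 3 of 70, Rbfox3 3 of 90, Mapt 2 of 37 and Snap25 2 of 22. Neurog2 had 1 of 9. Tubb3, Elavl3, Neurod1 and Syp had none among 7, 13, 14 and 5 regions. Glial genes had 29 of 524 (5.53%, 3.74 to 7.85%), of which Nfia and Nfib, a pair of factors that start gliogenesis, made up 8 of 82 and 7 of 98. At Nfia, 35 further regions were gained in wild type only and 9 in the knockout only, and its 82 regions held peaks in 24, 24, 63 and 37 cases. The glutamate transporter gene Slc1a2 had 3 of 15 and the water channel gene Aqp4 3 of 17.

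Pluripotency genes were not devoid of gained regions. Naive pluripotency genes had a low share, 14 of 493 (2.84%, 1.56 to 4.72%), in 7 of 15 genes. Nr5a2, a nuclear receptor, held 5 of those 14, and Esrrb, Klf4 and Tbx3 held 2 each. Klf5, Zfp42, Tfcp2l1 and Klf2 had none. Core pluripotency genes had 9 of 195 (4.62%, 2.13 to 8.58%), 4 of them at Sox2, which also belongs to the progenitor list. None lay at Pou5f1, Nanog, Utf1 or Lin28a, which had 10, 19, 5 and 13 regions. Formative genes, which mark the step after naive pluripotency, had 11 of 341 (3.23%), with 3 of 43 at Otx2 and 2 of 11 at Fgf5. Cdh1, the cadherin of stem cells, had 1 of 37.

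Lists of other cell types ranged on both sides of the background. Fibroblast genes had 22 of 300 (7.33%, 4.65 to 10.9%), behind only the 2 lists led by Gli3 and Robo2, in 12 of 16 genes: Fbn1 had 4 of 33, Postn 3 of 18, Pdgfrb 3 of 15, Twist2 3 of 38, and Col1a1 and Acta2 none. Feeder cells are fibroblasts and were removed before sampling, per the labels, and the share of such cells in each library was not measured. Endoderm (4.24%), mesoderm (4.28%), trophoblast (4.62%), germ line (4.29%), neural crest and epidermal (4.35%) and blood and endothelial genes (3.82%) were near 4.57%. FGF and EGF signalling genes had 4.73%, mitotic genes 4.62% and housekeeping genes 2.89%.

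**Figure D4:**
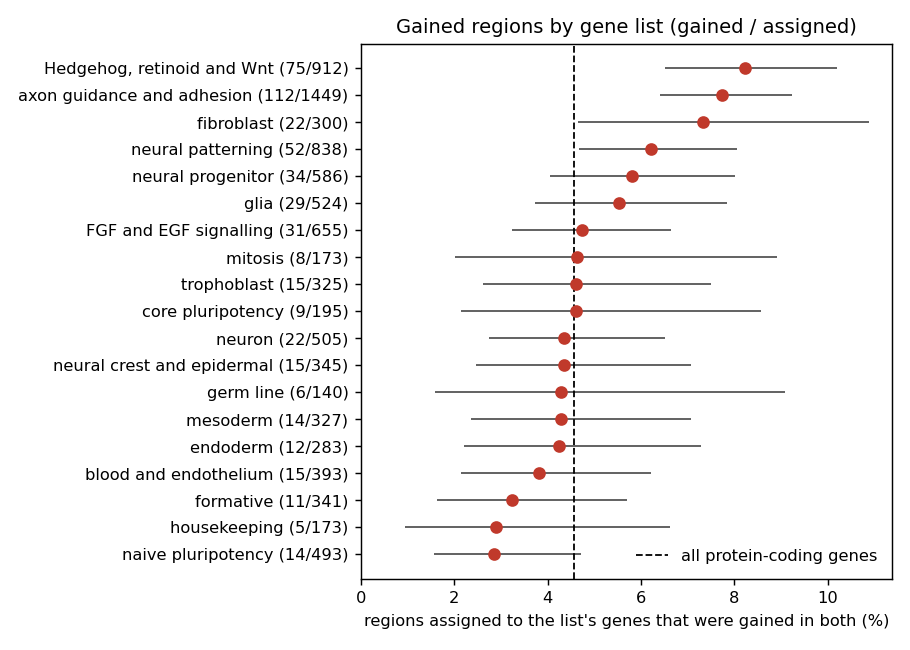
Share of the regions assigned to each gene list that were gained in both genotypes (%, horizontal axis), with the number gained and assigned in brackets; points are shares, lines 95% exact binomial intervals that cover counting error only, and the dashed line is the 4.57% of all protein-coding genes. The Hedgehog, retinoid and Wnt list (8.22%) and the axon guidance and adhesion list (7.73%) lie highest, and the naive pluripotency (2.84%) and housekeeping (2.89%) lists lowest; the order at both ends changes with the processing.

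Counted by gene, the members were most numerous in very long genes. Wwox, an oxidoreductase gene at a fragile site, had 21 of 170 and Rad51b, a DNA repair gene, 20 of 137. Dab1, the adaptor of reelin signalling in migrating neurons, had 17 of 114, with peaks in 43, 48, 75 and 72 of its regions. Sox5 had 17 of 174, and Celf2, a splicing regulator, 16 of 91, with peaks in 30, 33, 70 and 55. Among the 15 genes with most members were also the phosphatase gene Ptprm (16 of 105), Robo2 as above, the synaptic scaffold gene Dlg2 (16 of 147), the adhesion genes Ntm (15 of 109) and Lsamp (15 of 117) and the calcium channel gene Cacna1c (14 of 82). The others were Auts2, Jazf1, Macrod2 and Ccser1. With at least 20 regions, the genes with the highest share, named after their values were seen, were Macc1 (7 of 24, 29.2%), Fam13a (7 of 26, 26.9%), Akain1 (6 of 23, 26.1%) and Luzp2 (7 of 27, 25.9%).

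A gained region covered part of 329 of the 32851 promoter windows in the RefSeq table (1.00%), each of 250 bases before and 50 after a start. A window was counted when the merged region reached it, not when both day 5 peaks did. At some windows only 1 genotype's peak did so, the wild type's at Fezf2 and Ifna5 and the knockout's at Krt73. The shares below include such windows. They belonged to 303 genes, 156 protein coding and 147 for long noncoding RNAs. These promoters were poorer in CG pairs than windows as a whole, as were those under the other gained regions and under lost regions. The CpG ratio (observed CG pairs over the number given by the C and G content) was 0.6 or more in 14.0% of them (10.4 to 18.2%), in 35.8% of all windows, in 64.2% of those under regions in all 4 libraries, in 8.08% under regions lost in both and in 3.77% with no region. Under regions gained in wild type only it was reached in 6.56% (4.44 to 9.29%), and under those gained in the knockout only in 5.96% (3.96 to 8.55%). Under regions of the remaining patterns it was reached in 12.2%. A low share was thus not particular to members, and it was lower still in both groups gained in 1 genotype. The median GC content of member promoters was 50%, against 60.3% under regions in all 4 libraries. By this ratio, promoters under gained regions were closer to windows with no region than to those under regions in all 4 libraries, and their interval overlapped that of the lost group (5.25 to 11.8%). The CG-rich exceptions included Gad1 above, Fezf2, where only the wild type peak reached the window, and Tle4 and Basp1, with 44 and 38 CG pairs in their windows.

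Of 11 short motifs searched on both strands, the E-box CAGCTG is a form bound by basic helix-loop-helix factors. It was found in 25.5% of promoters under members (84 of 329, 20.9 to 30.6%), in 16.3% of all windows, in 17.8% under lost regions and in 2711 of 16990 under regions in all 4 libraries. Regions gained in wild type only had it in 27.1% and those gained in the knockout only in 17.2%. The general E-box CANNTG, which includes CAGCTG and CATCTG, was found in 75.1% of member promoters and 72.3% of all windows, and CATCTG in 17.3 and 17.2%. The TEAD motif GGAATG was found in 20.7% of member promoters, in 14.7% of all windows and in 20.2% under lost regions. The homeodomain motif TAATTA was found in 8.81% of member promoters, in 5.29% of all windows, in 8.08% under lost regions and in 9.03% with no region. The AP-1 motif TGANTCA was found in 12.8, 7.81, 9.43 and 10.2% in the same order. Under regions gained in wild type only, TEAD was found in 20.6%, TAATTA in 6.56% and AP-1 in 10.2%. Under those gained in the knockout only the shares were 15.2, 5.96 and 9.05%. For these motifs the member promoters were thus near some, but not all, of the groups outside the constantly listed one. The SOX motif ACAATG (14.0%, 12.6% of all), the octamer ATGCAAAT (1.52%, 1.74%), the TATA box TATAAA (12.8%, 13.6%) and CCAAT (33.1%, 37.4%) were near the share of all windows. The GC box GGGCGG was found in 19.1%, against 35.7% of all windows and 60.3% under regions in all 4 libraries. A match is only a match of letters, and several of the windows share a gene.

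**Figure D5:**
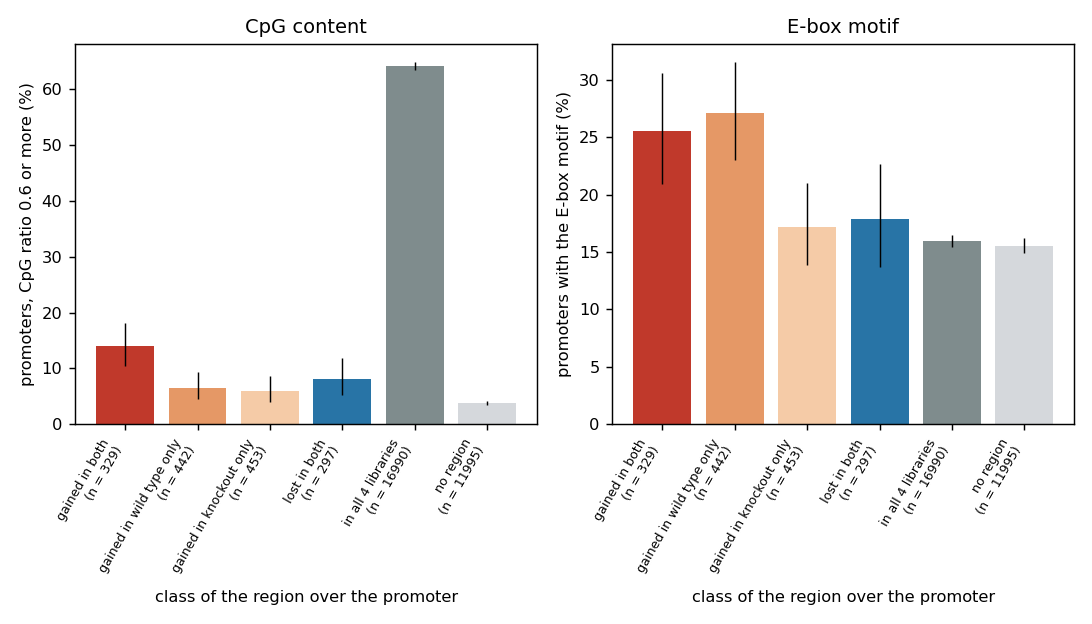
Promoter windows by the class of the region that covers them (horizontal axis, number of windows in brackets). The left panel gives the share with a CpG ratio of 0.6 or more (%), 14.0% under regions gained in both and 64.2% under regions in all 4 libraries, and the right panel the share with the CAGCTG motif (%), 25.5% under regions gained in both and 17.8% under regions lost in both; lines are 95% exact binomial intervals.

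Several of the 156 protein-coding genes with a gained promoter were striated muscle genes. They were noticed in the data, and the list of 79 muscle genes used to count them was written afterwards with them in it, so the count is a description and supports nothing. RefSeq windows were found for 63 of the 79, and members covered windows of 11 (17.5%), beside 156 of 17492 protein-coding genes with a window (0.892%). The 11 were Actc1, Ankrd23, Csrp3, Fitm1, Klhl41, Ldb3, Lmod2, Musk, Myh7, Myh13 and Smpx. Regions lost in both covered none, regions gained in wild type only covered 3 genes, those gained in the knockout only 3, and those in all 4 libraries 18, while 21 had a window with no region. At Actc1, the cardiac actin gene, the member chr2:114052453-114053363 lay 3712 bp (wild type) and 3742 bp (knockout) from the nearest day 0 peak, and the day 5 peaks shared 91.3% of their bases. At Smpx, a small muscle protein gene, these gaps were 31981 and 31969 bp and the shared part 96.1%, and at Csrp3, a sarcomere adaptor gene, they were 8712 and 8741 bp and 91.2%. Myh7, a cardiac myosin gene, had a wild type day 0 peak only 135 bp away and a knockout one at 1700 bp. Of the 14 windows, 4 held CAGCTG, as did 30 of the 74 windows of all 63 genes.

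Members also covered 11 of 1005 miRNA hairpins (1.09%), in 8 regions. Regions of any kind covered 315 hairpins. Regions lost in both also covered 11, regions gained in wild type only 19, those gained in the knockout only 19 and those in all 4 libraries 167. The count is thus a description and does not set members apart. One region, chr12:109585607-109586532, held 4 of them, Mir337, Mir3544, Mir540 and Mir665, in the imprinted Dlk1 to Dio3 cluster, whose miRNAs are expressed from the maternal chromosome. The nearest day 0 peaks were 8261 bp (wild type) and 8336 bp (knockout) away, and 90.8% of bases were shared. Mir344d-3 and Mir344f, members of a repeated family on chromosome 7, lay in separate regions with shared parts of 95.6 and 91.2%. For Mir344d-3 the nearest day 0 peaks were 63379 and 52925 bp away, and for Mir344f 18421 and 18470 bp. Reads of this family could fall on near-identical copies, so its regions are uncertain. The mature sequences of both groups, except those of Mir3544, are given from RefSeq, 5′ to 3′, with the seed (bases 2 to 8) in capitals. The 20 mature sequences of the 11 hairpins had 20 different seeds, so no seed was shared.
mmu-miR-337-5p: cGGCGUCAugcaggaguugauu
mmu-miR-337-3p: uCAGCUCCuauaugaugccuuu
mmu-miR-540-5p: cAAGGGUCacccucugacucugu
mmu-miR-540-3p: aGGUCAGAggucgauccugg
mmu-miR-665-5p: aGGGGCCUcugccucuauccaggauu
mmu-miR-665-3p: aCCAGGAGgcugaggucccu
mmu-miR-344d-3p: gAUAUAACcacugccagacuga
mmu-miR-344d-3-5p: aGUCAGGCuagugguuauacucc
mmu-miR-344f-3p: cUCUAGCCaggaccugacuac
mmu-miR-344f-5p: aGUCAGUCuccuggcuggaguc

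The remaining hairpins were Mir3067, Mir496b, Mir3097, Mir7074 and the one listed as Gm23450, which gives miR-935. The nearest day 0 peak of either genotype was 197 bp away at Mir3067 and between 2830 and 10698 bp away at the other 4. A hairpin in a gained region shows only that the DNA there was listed as accessible at day 5, and expression of these miRNAs was not analysed here.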

How the data were processed

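Nuclei of 4 groups, 1 library each, were assayed by single-nucleus ATAC-seq. Per the file headers, the authors' peak lists, 1 per library with 3 columns (chromosome, start, end), came from cellranger-arc (version 2.0.0) with an mm10 reference. Scanpy 1.7.2 is also named in the submitters' processing notes. Depth and doublet treatment are not given in the sources used here.

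Peaks sharing 1 bp or more were merged across libraries with pandas 2.3.3. Genes came from RefSeq (GRCm38.p6): 17492 of 21887 protein-coding genes had annotated starts, and both gene ends stood in for the other 4395. Named genes were the 15 with most members (1 per 500 kb), the leader of each list with at least 3, the 5 widest members, the 3 densest windows, list genes with a member at an end and 21 neural and pluripotency genes, not all of which are reported here. The members and lists were chosen with earlier results of these data known. Intervals are exact binomial (scipy 1.17.1). The merging was tested on simulated peaks. No genome sequence was used, so promoter windows replaced the central bases of regions planned for the sequence analysis. Alternatives were stricter overlap, equal list lengths, distance from day 0 peaks, autosomes only, and other gene windows and assignments.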

Additional observations from a re-analysis of the deposited data

How the results depend on the processing

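The number of gained regions stayed within 1.5 times 16475 under the alternatives run for it: equal list lengths, 500 bp from any day 0 peak, autosomes only, merging across 200 bp and 50% reciprocal overlap. The median base overlap of both day 5 peaks was 87.3% with 50% reciprocal overlap, 87.9% with the widest peaks of each list in equal numbers and 87.3% at least 500 bp from day 0 peaks. The share at gene starts or ends was 1.79% at least 500 bp from day 0 peaks, 1.69% with a 500 bp window, 3.58% with both ends of every gene and 1.71% with annotated starts only, the last 2 added after seeing the data. The share outside genes was 51.5% at least 500 bp from day 0 peaks and 48.1% with a 5 kb window. With 50% reciprocal overlap, which counts wild type day 5 peaks only, the gained shares were 7.75% (all genes), 11.1% (axon guidance and adhesion), 12.4% (Hedgehog, retinoid and Wnt), 4.85% (naive pluripotency) and 8.27% (neural progenitor). For all genes the share was 3.96% at least 500 bp from day 0 peaks. With regions within 50 kb of a gene end it was 3.36%, and it was 4.31% for the axon list and 5.31% for the Hedgehog, retinoid and Wnt list. The naive list, at 3.75%, was then above all genes. The neural progenitor list, at 4.09%, was below all genes (4.51%) with gene spans only. The fibroblast list was highest with equal list lengths and with 50 kb windows. The lowest list was not the naive one under any of the 6 alternatives: it was the housekeeping list under 5 (from 0 to 4.17%) and the core pluripotency list with 50 kb windows (2.51%). The other lists gave 90 further shares, of which 76 stayed within the interval of the share reported and 14 did not. With at least 10 regions per gene in place of 5, the median over genes changed in 17 of 20 cases, all genes included. Of the 329 promoter windows, 234 lay wholly inside a gained region. The share of these windows with a CpG ratio of 0.6 or more was 15.5% over their central 150 bases, which stood in for the central bases of regions, and 14.1% over the windows wholly inside. The planned whole-region sequences were not run, since no genome sequence was used. No paired analysis was possible because each group had 1 library. Missing depth limits every statement: a peak absent from a list is not shown to be closed chromatin.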

Other observations

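Some members lay at starts of other developmental genes that belong to none of the lists, and these were named after their values were seen. Hoxa2, a hindbrain patterning gene, had the member chr6:52164813-52165428, 156 bp (wild type) and 152 bp (knockout) from a day 0 peak, with 89.0% of bases shared. Ntf3, a neurotrophin, Nts, a neuropeptide, and Lrrtm1, a synaptic adhesion gene, had members over their promoters with 94.6, 93.5 and 75.9% of bases shared. The nearest day 0 peaks were 764 and 755 bp away at Ntf3, 7662 and 7658 bp at Nts and 264 and 249 bp at Lrrtm1. Hmga2, a chromatin protein of progenitor cells, had a member over part of its promoter (137 of 300 bases) with 53.0% shared. Only the wild type day 5 peak reached this promoter window, and the knockout peak lay wholly outside it.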
